A study of Homo sapiens with 6 samples.

Results

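The inflammatory chemokines and cytokines examined here are 10 genes of the 62252 measured: the chemokine genes CXCL8, CXCL1, CXCL2, CXCL3, CCL2 and CCL20 and the cytokine genes IL1A, IL1B, IL23A and TNF. They were chosen by symbol, with earlier results of these data known, so their calls are not those of a list drawn blind. The rows of all transcripts that GENCODE release 44 assigns to a symbol were summed per gene. After overnight treatment with an iron chelator, 6 of the 10 rose, namely CXCL8, CXCL2, CXCL3, CCL2, IL1A and IL23A. By the same rule 8.18% of all genes with an adjusted p were called higher, and 7 of the 10 had an adjusted p. CCL2 and IL1A passed the count filter only through their Chelator counts, so a lower call was hardly open to them. None of the 10 fell past the threshold. The other 4 (CXCL1, CCL20, IL1B and TNF), each with 15 counts or fewer in every library, gave no call. All 10 stayed at low levels, with at most 5.63 TPM (a level corrected for transcript length and library size) in any library.

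The cells were K562, an established erythroid leukemia line. To ask how low iron availability changes mRNA levels, the study treated them overnight with 10 µM 21H7, a chelator that enters cells (the Chelator group), or with as much of the solvent alone (the DMSO group), with 3 libraries per group. Both groups were the unmodified line in RPMI medium with fetal bovine serum, and there was no group without solvent. Polyadenylated RNA was sequenced as read pairs. Secreted protein was not measured.

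Chemokines are small secreted proteins that draw leukocytes along a gradient, and CXCL8, CXCL1, CXCL2 and CXCL3 act on neutrophils through shared receptors. Interleukin 1 and TNF start inflammatory signaling, and NF-kappaB is the best known activator of these genes. Many of their mRNAs are short-lived because AU-rich stretches in the 3′ UTR recruit decay factors such as ZFP36.

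The 4 CXC members lie in 1 gene cluster on chromosome 4, and the sequence upstream of each is shown because they hold the same kappaB-type letters. These are the 150 bases before the RefSeq start site (GRCh38.p14), 5′ to 3′ on the strand of the gene. Capitals mark matches to GGANTTTCC (a kappaB-type motif) and TGANTCA (an AP-1 motif), searched on both strands; the motifs did not overlap.
CXCL8, chr4:73740419-73740568, plus strand: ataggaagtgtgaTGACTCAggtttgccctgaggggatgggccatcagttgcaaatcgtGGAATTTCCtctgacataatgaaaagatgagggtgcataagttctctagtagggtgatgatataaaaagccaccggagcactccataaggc
CXCL1, chr4:73869243-73869392, plus strand: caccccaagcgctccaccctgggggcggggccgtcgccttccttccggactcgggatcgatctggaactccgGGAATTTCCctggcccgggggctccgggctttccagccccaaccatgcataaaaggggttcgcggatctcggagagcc
CXCL2, chr4:74099196-74099345, minus strand: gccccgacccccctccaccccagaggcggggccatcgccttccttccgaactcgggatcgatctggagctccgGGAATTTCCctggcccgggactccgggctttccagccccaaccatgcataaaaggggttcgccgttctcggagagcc
CXCL3, chr4:74038690-74038839, minus strand: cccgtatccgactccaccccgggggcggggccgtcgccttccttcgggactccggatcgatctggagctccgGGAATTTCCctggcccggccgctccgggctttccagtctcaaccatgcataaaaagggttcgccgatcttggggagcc

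In all 4 genes the match read GGAATTTCC. It lay 91 to 83 bases before the start of CXCL8, 78 to 70 before CXCL1 and CXCL3 and 77 to 69 before CXCL2. In CXCL8 an AP-1 match stood further out, at 137 to 131 bases. RefSeq gave a promoter for 9 of the 10 members, all but CCL2. In the 250 bases before the start, the kappaB-type letters were found in 4 of these 9 genes, against 1.47% of 27305 promoters of the same length. Other forms of the kappaB motif were not searched. CXCL1, CXCL2 and CXCL3 are paralogs with much the same letters around the match, so their matches are not independent. The AP-1 letters were found in 3 of 9 (CXCL8, IL1A and IL23A) against 6.6% of promoters, and the hypoxia-response core ACGTG in 1 of 9 (IL1A) against 18.7%. The TATA letters TATAAA were found in 5 of 9 (CXCL8, CCL20, IL1A, IL23A and TNF) against 11.1%. These are matches of letters only, and no binding was measured.

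The 3′ UTRs of the members share AU-rich letters. The nonamer TTATTTATT was present in the Ensembl canonical transcript of 7 of the 10 members, against 4.36% of 6770 canonical 3′ UTRs of the same length range (306 to 1252 bases). At least 3 copies of ATTTA were present in 9 of the 10, all but CCL2, against 21% of these 3′ UTRs. CXCL2 held 10 copies of ATTTA, CXCL8 and TNF 9 each, and CCL2 only 1. For these 4, the stretch of 30 bases with the most copies is printed (GRCh38, strand of the gene), with ATTTA in capitals, so that the densest and the sparsest can be compared.
CXCL2, chr4:74097586-74097615, minus strand: cttctATTTATTTATTTATTTATTTAtttg
TNF, chr6:31578000-31578029, plus strand: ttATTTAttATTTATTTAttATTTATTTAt
CXCL8, chr4:73743111-73743140, plus strand: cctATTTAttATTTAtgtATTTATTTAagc
CCL2, chr17:34256950-34256979, plus strand: aatgttaattcttATTTAagttattgatgt

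The libraries held 78.6 to 90.4 M estimated counts in DMSO and 85.4 to 101 M in Chelator. To be called, a gene needed a log2 fold change beyond 1 in either direction and a DESeq2 Wald adjusted p under 0.05. By this rule 2646 of 24542 genes with an adjusted p were called (10.8%), 2007 higher (8.18%) and 639 lower (2.6%) in Chelator. The mean fragment length, read from long transcripts without counts, was 252 to 264 bases in DMSO and 200 to 218 bases in Chelator. This difference and the treatment cannot be told apart. In bulk RNA, fewer expressing cells and less RNA per cell cannot be told apart either.

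Of the 10 members, 9 had more than 10 counts over the 6 libraries and were tested, and 7 received an adjusted p. The 6 calls, all higher in Chelator, stand beside the 8.18% of genes called higher and the 13.6% called higher among 8544 genes of similar abundance (mean normalized count 10 to 250), the range that holds all 6. CXCL1, CCL2, IL1A and TNF reached the filter only through their Chelator counts, so a lower call was hardly open to them. CXCL8, CXCL2, CXCL3, IL23A and CCL20 passed on DMSO counts alone. The normalized values of the groups did not overlap in 7 members, all higher in Chelator, and the same held for 24.8% of all 26074 genes tested. None of the 10 overlaps another annotated gene.

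**Figure D1:**
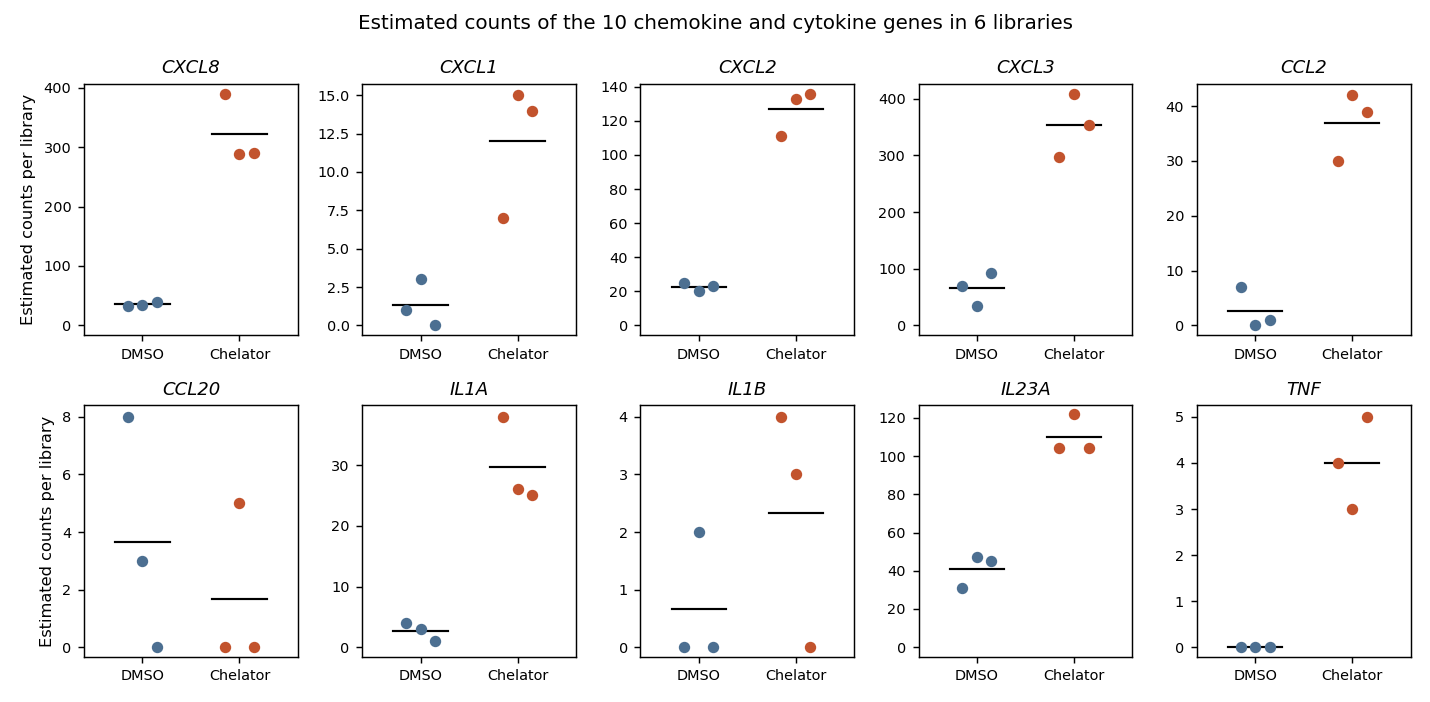
Estimated counts per library (y axis, linear, its own scale in each panel) of the 10 members in the DMSO and Chelator groups; each point is 1 library and each line the mean of 3. CXCL8 went from 33 to 39 counts to 289 to 389, while CCL20 and IL1B had 8 counts or fewer in every library.

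CXCL8, which encodes interleukin 8, the main neutrophil attractant in humans, had the smallest standard error of the tested members. It had 33, 34 and 39 counts in DMSO and 389, 289 and 290 in Chelator. Every Chelator library stood above every DMSO library. Its level went from 0.538 ± 0.0665 TPM (SD, n = 3) to 5.44 ± 0.201 TPM, and the fold change was 9.92 (95% interval 7.11 to 13.8; log2 3.31 ± 0.25 SE, adjusted p = 1.56e-39). Among all genes, 458 called genes rose more, and 9687 genes had a higher mean TPM in Chelator.

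CXCL8 (gene ENSG00000169429.12, chr4:73740519-73743716) was read mostly from its canonical transcript CXCL8-201, which held 73.9% to 100% of its counts in DMSO and 76.9% to 86.5% in Chelator. The shorter retained-intron transcript CXCL8-203 had 2.21, 0 and 0 counts in DMSO and 15.8, 37.4 and 20 in Chelator. No stretch of 31 bases in its transcripts occurs in those of another gene.

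CXCL2 and CXCL3 attract neutrophils through the receptor CXCR2, as CXCL1 does. CXCL3 had 69, 35 and 92 counts in DMSO and 298, 408 and 354 in Chelator. The 3 DMSO values were spread widely, but the highest was still far below the lowest Chelator value. CXCL3 rose 4.61-fold (95% interval 3.02 to 7.03; log2 2.20 ± 0.31, adjusted p = 1.59e-11), from 1.08 ± 0.505 to 5.19 ± 0.533 TPM.

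CXCL2 had 25, 20 and 23 counts in DMSO and 111, 133 and 136 in Chelator. These are tight groups without overlap. It rose 4.46-fold (95% interval 2.73 to 7.29; log2 2.16 ± 0.36, adjusted p = 2.05e-08), from 0.527 ± 0.0395 to 2.41 ± 0.487 TPM.

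CXCL1, the third paralog, was nearly silent. It had 1, 3 and 0 counts in DMSO and 7, 15 and 14 in Chelator. The counts did not overlap, but the values normalized for transcript length did, because the 3 counts of DMSO replicate 2 were assigned to a short transcript, CXCL1-202, and all Chelator counts to CXCL1-201. Its log2 fold change of 2.13 ± 1.35 was not called (adjusted p = 0.22). It was not called under 12 of 14 other settings, with a log2 fold change from 1.49 (without DMSO replicate 3) to 4.20. It was called without the length offset (log2 2.96, adjusted p = 0.039) and without DMSO replicate 2 (log2 4.20, adjusted p = 0.047). The ratio of summed counts per library size was 7.65 (exact 95% interval 2.74 to 29.6, counting error only).

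The transcripts of these 3 paralogs share sequence, so their reads can be divided between them. Of the stretches of 31 bases in their transcripts, 13.7% of those of CXCL1, 23.6% of those of CXCL2 and 9.23% of those of CXCL3 also occur in another gene, in nearly all cases another of the 3. Each gene still has unique sequence over most of its length.

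**Figure D2:**
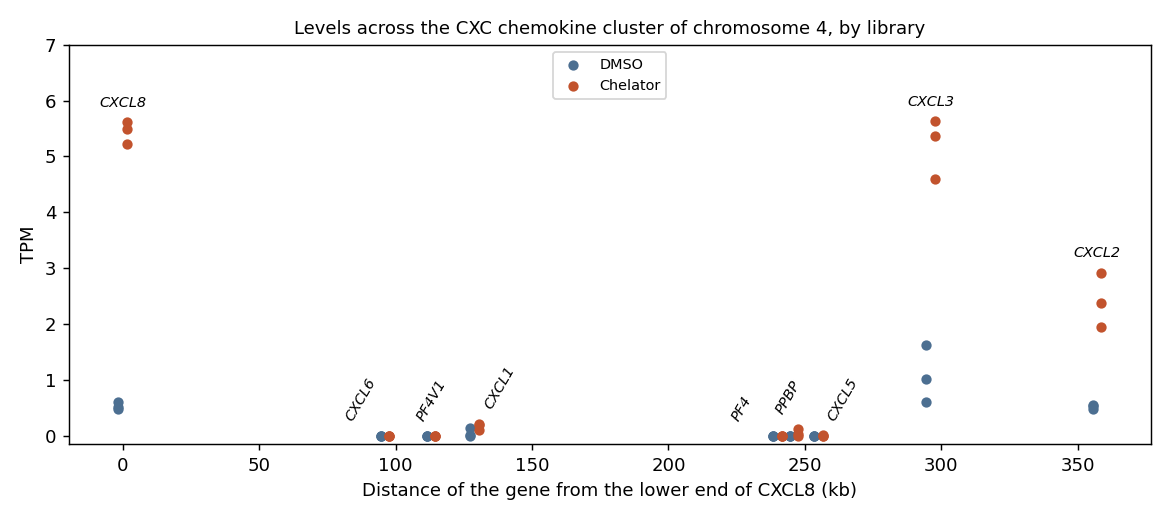
TPM per library (y axis) of the chemokine genes between CXCL8 and CXCL2 on chromosome 4 against distance from the lower end of CXCL8 in kb (x axis); points are libraries, colored by group. CXCL8, CXCL3 and CXCL2 lie higher in Chelator, while the genes between CXCL8 and CXCL3 stay at or below 0.22 TPM.

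Across the 359 kb from CXCL8 to CXCL2 there are 10 protein-coding genes, of which CXCL8, CXCL3 and CXCL2 were called. The other chemokine genes between them were at or near 0. CXCL6, PF4V1 and PF4 had no count in any library. PPBP had 0 in all DMSO libraries and 2, 8 and 0 in Chelator, and CXCL5 had 1 count in 1 library.

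CCL2, which attracts monocytes, had the largest fitted change of the called members. It had 7, 0 and 1 counts in DMSO and 30, 42 and 39 in Chelator. It rose 20.4-fold (95% interval 6.66 to 62.2; log2 4.35 ± 0.82, adjusted p = 8.84e-07), from 0.0408 ± 0.0562 to 0.982 ± 0.175 TPM. The DMSO group held only 8 counts. Without DMSO replicate 1, which holds 7 of these 8 counts, the log2 fold change was 6.55, and without the length offset it was 3.58.

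The few DMSO counts of CCL2 were not assigned to its canonical transcript. CCL2-201 (741 bases) had 0 counts in all 3 DMSO libraries and 30, 40.4 and 36.9 in Chelator. All 8 DMSO counts were assigned to the longer CCL2-202 (1139 bases). At its locus on chromosome 17, the next 4 chemokine genes (CCL7, CCL11, CCL8 and CCL13) had 0 counts in every library, and CCL1 had a single count in Chelator replicate 1.

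CCL20, which draws cells that carry the receptor CCR6, was the 1 member with a lower fitted value, and it did not pass the test. It had 8, 3 and 0 counts in DMSO and 0, 5 and 0 in Chelator. Each group contained libraries at 0, so the groups overlapped. The ratio of summed counts was 0.387 (exact 95% interval 0.105 to 1.21), and DESeq2 gave no adjusted p. All 16 counts were assigned to CCL20-205, a transcript of 397 bases with a start upstream of the main one (chr2:227805739-227813987), and none to the canonical CCL20-201, so full-length CCL20 mRNA was not detected in any library at this depth. Whether these 16 counts come from CCL20 mRNA cannot be read from estimated counts.

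**Figure D3:**
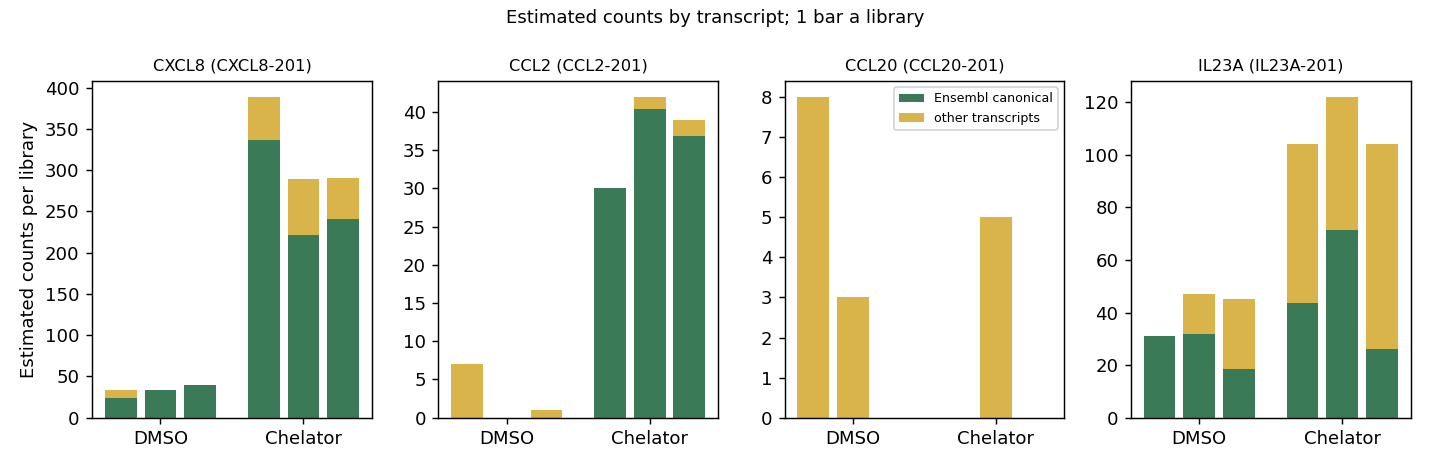
Estimated counts per library (y axis, from 0) of CXCL8, CCL2, CCL20 and IL23A, each bar 1 library, divided into the Ensembl canonical transcript (green) and all other transcripts (yellow). CCL2-201 had 0 counts in every DMSO library, CCL20-201 had 0 in every library, and the counts of IL23A were split between both parts in every library except DMSO replicate 1.

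IL1A, whose protein acts as an alarm signal when cells are damaged, has 1 annotated transcript. It had 4, 3 and 1 counts in DMSO and 38, 26 and 25 in Chelator. All 3 Chelator libraries stood well above the DMSO libraries. It rose 9.72-fold (95% interval 3.11 to 30.4; log2 3.28 ± 0.84, adjusted p = 4.12e-04), but only to 0.238 ± 0.0521 TPM from 0.0238 ± 0.0124 TPM.

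IL1B, the partner gene that lies beside IL1A on chromosome 2, gave no such signal. It had 0, 2 and 0 counts in DMSO and 4, 3 and 0 in Chelator. With 9 counts in all it was not tested, and the ratio of summed counts was 2.98 (exact 95% interval 0.567 to 29.4). No count was assigned to the canonical IL1B-201; those present were assigned to IL1B-204, IL1B-207 and IL1B-208, and whether they come from IL1B mRNA cannot be read from estimated counts either.

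IL1RN, which lies at the far end of the same cluster and encodes the antagonist that blocks the interleukin 1 receptor, was called. It had 0 counts in each DMSO library and 14, 15 and 12 in Chelator, at least 3.89-fold higher against a floor of 3 counts per library (adjusted p = 7.55e-04). IL1RN reached the filter on low counts only through its Chelator libraries, so the call had to go in this direction. The 6 genes between IL1B and IL1RN (IL37, IL36G, IL36A, IL36B, IL36RN and IL1F10) had 2 counts or fewer in every library.

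IL23A encodes the p19 chain of interleukin 23, which is active only together with IL12B. It had 31, 47 and 45 counts in DMSO and 104, 122 and 104 in Chelator. The groups did not overlap, and DMSO replicate 1 was the lowest library. It rose 2.40-fold (95% interval 1.46 to 3.94; log2 1.26 ± 0.37, adjusted p = 0.0022), from 0.880 ± 0.347 to 2.11 ± 0.146 TPM. Without DMSO replicate 1 the log2 fold change was 0.97, below the threshold, so this call rests on that library. IL12B had no count in any library.

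The gain of IL23A lay mostly in transcripts without an annotated coding sequence. The canonical, coding IL23A-201 had 31, 31.7 and 18.7 counts in DMSO and 43.5, 71.4 and 26.3 in Chelator, and these groups overlapped. IL23A-202 and IL23A-203, which start further upstream (from chr12:56334174), together had 0, 15.3 and 26.3 counts in DMSO and 60.5, 50.6 and 77.7 in Chelator, without overlap. Over coding transcripts alone the mean level of IL23A was 0.472 TPM in DMSO and 0.663 TPM in Chelator. PAN2, the neighbor on the side of the upstream starts, had 1351 to 1653 counts in DMSO and 3288 to 4415 in Chelator (log2 1.00 ± 0.16). STAT2, the neighbor on the other side, changed by log2 0.22 ± 0.08.

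TNF, the namesake of the TNF family and a central inflammatory cytokine, was at the limit of detection. It had 0 counts in each DMSO library and 4, 3 and 5 in Chelator, at least 1.16-fold higher against a floor of 3 counts per library. DESeq2 gave it no adjusted p. Its Chelator level was 0.0323 ± 0.0105 TPM. The genes on either side, LTA and LTB, encode lymphotoxins and were not called: LTA had 2, 0 and 0 counts in DMSO and 3, 10 and 3 in Chelator, and LTB 6, 14 and 8 against 16, 19 and 25.

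Per length, the means in DMSO were highest for CXCL3 (1.08 TPM) and IL23A (0.880 TPM), followed by CXCL8 (0.538 TPM) and CXCL2 (0.527 TPM). The range of IL23A (0.479 to 1.09 TPM) overlapped those of the other 3, so its place in DMSO was not separated from theirs. In Chelator, CXCL8 (5.44 TPM) and CXCL3 (5.19 TPM) overlapped at the top, and CXCL2 (2.41 TPM) and IL23A (2.11 TPM) overlapped below them. CCL2 came next at 0.982 TPM, above all libraries of IL1A and CXCL1, whose ranges overlapped. The sum over the 10 members was 3.27 to 3.83 TPM in DMSO and 15.3 to 18.0 TPM in Chelator.

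**Figure D4:**
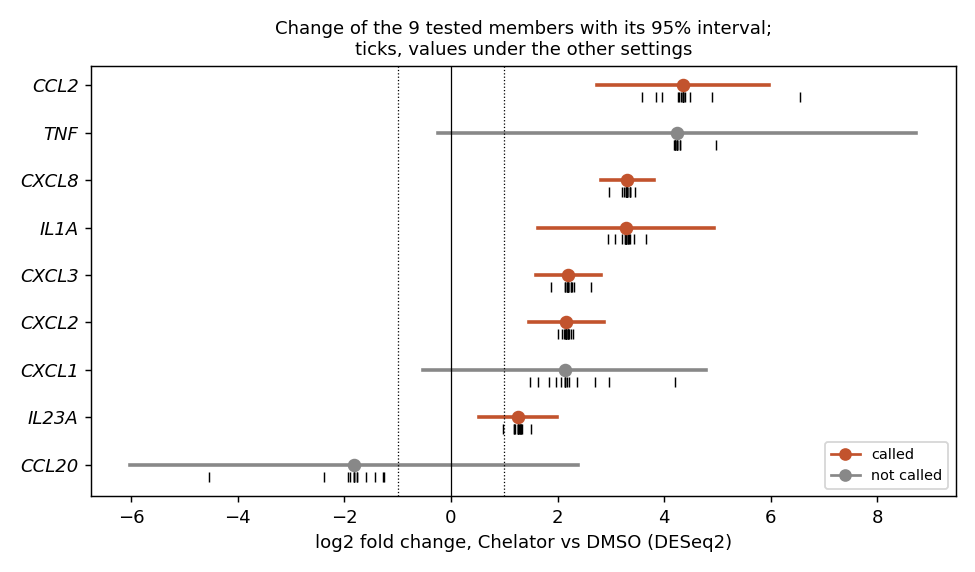
log2 fold change of Chelator against DMSO (x axis) with its 95% interval for the 9 tested members; black ticks give the value under each other setting and dotted lines the threshold of 1. The 6 called members lie to the right of 0 with their whole interval, and CXCL1, CCL20 and TNF have intervals that cross 0.

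The receptors of the members were mostly absent or little changed. Of 13 receptor and decoy genes, 1 was called higher and 1 lower, beside 8.18% and 2.6% of all genes. Counts this small do not set the list apart. Their median log2 fold change was 0.19 over the 9 with an adjusted p, against 0.016 over all genes. CXCR1 and CCR2 had no count in any library, and CXCR2, the receptor for CXCL1, CXCL2 and CXCL3, had 5, 1 and 0 counts in Chelator and none in DMSO. The decoy receptor ACKR1 had 8, 0 and 9 counts in Chelator and none in DMSO (adjusted p = 0.096). The TNF receptor genes TNFRSF1A (24.6 to 30.0 TPM, log2 0.26 ± 0.08, adjusted p = 0.003) and TNFRSF1B (57.4 to 68.3 TPM, log2 0.22 ± 0.08, adjusted p = 0.014) were the most abundant and rose slightly, below the fold threshold.

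ACKR2, a decoy that removes CC chemokines, rose from 36, 56 and 39 counts to 125, 104 and 84 (log2 1.75 ± 0.36, adjusted p = 7.74e-06; 1.02 without the length offset). Of the stretches of 31 bases in its transcripts, 28.1% also occur in other, mostly overlapping, genes. IL1R1, the signaling receptor of interleukin 1, was at 0.770 TPM in DMSO and 0.800 TPM in Chelator (log2 0.02 ± 0.25), and its coreceptor IL1RAP changed by log2 0.19 ± 0.32. The decoy IL1R2 had 2 counts in 1 library. IL23R, the receptor of interleukin 23, was at 19.0 and 21.5 TPM (log2 0.17 ± 0.11, adjusted p = 0.26), and its second chain IL12RB1 was below 0.2 TPM on average in both groups.

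CCR6, the receptor for CCL20, went from 73, 128 and 88 counts to 0 in each Chelator library, at least 37.3-fold lower against the floor (adjusted p = 1.73e-12). All its DMSO counts were assigned to 1 transcript, CCR6-201, and 85.3% of the stretches of 31 bases in its transcripts also occur in another gene, nearly all in an overlapping readthrough gene on the same strand (ENSG00000272980). That gene had 404, 379 and 445 counts in DMSO and 676, 793 and 714 in Chelator, and the sum of both genes was 477 to 534 in DMSO and 676 to 793 in Chelator. Whether the lost CCR6 counts were reassigned to it was not tested.

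Of 11 partner and processing genes, 8 received an adjusted p and only IL1RN was called, beside the 8.18% of all genes called higher. The genes of the inflammasome, which matures interleukin 1 beta, were low in part: CASP1 had 4 counts in 1 DMSO library and none elsewhere, and NLRP3 had 5 counts or fewer in each library. Its adaptor PYCARD rose below the fold threshold (log2 0.52 ± 0.14, adjusted p = 8.19e-04), but 56.3% of the 31-base stretches of its transcripts also occur in its antisense gene, and GSDMD, the pore former, did not pass the test (log2 0.42 ± 0.19, adjusted p = 0.07). The calpain genes, whose products cut the precursor of interleukin 1 alpha, moved in opposite directions: CAPN2 rose by log2 0.66 ± 0.06 (adjusted p = 2.46e-24) and CAPN1 fell by 0.35 on the log2 scale (SE 0.06, adjusted p = 4.47e-08). ADAM17, the protease that releases TNF, changed by log2 0.11 ± 0.11. Of its cofactors, RHBDF1 rose by log2 0.95 ± 0.11 (adjusted p = 1.24e-15) and RHBDF2 changed by log2 0.14 ± 0.18.

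Of 40 other chemokines, 16 had no count in any library and 10 received an adjusted p. Of these 10, 2 were called, both higher, beside the 8.18% of all genes called higher, and counts this small do not set the list apart from all genes. CCL24, an eosinophil attractant, rose from 5, 8 and 8 counts to 40, 49 and 39 (log2 2.43 ± 0.60, adjusted p = 2.57e-04). CXCL16, which is made as a membrane-bound form, rose from 8, 10 and 11 counts to 32, 38 and 34 (log2 1.53 ± 0.60, adjusted p = 0.032). The call for CXCL16 was lost, with the log2 fold change between 1.33 and 1.59, on leaving out any library except DMSO replicate 3. The median log2 fold change of the 10 other chemokines with an adjusted p was 0.37, against 0.016 over all genes.

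Of 59 other cytokines, 14 had no count in any library and 28 received an adjusted p. Of these 28, 9 were called, all higher, beside 8.18% of all genes and 13.6% of those with a mean normalized count of 10 to 250. LIF, a cytokine of the interleukin 6 family, had 5, 7 and 4 counts in DMSO and 140, 192 and 133 in Chelator (log2 4.61 ± 0.48, adjusted p = 1.23e-20). IL11, of the same family, went from 11, 2 and 13 counts to 240, 187 and 223 (log2 3.99 ± 0.46, adjusted p = 4.64e-17). IL6 itself went from 53, 42 and 51 counts to 225, 232 and 233 (log2 2.43 ± 0.28, adjusted p = 1.40e-16). EBI3, a shared chain of interleukins 27 and 35, went from 4, 0 and 3 counts to 45, 47 and 40 (log2 4.05 ± 0.80, adjusted p = 2.64e-06; 4.64 without DMSO replicate 1 and 3.46 without DMSO replicate 2). In all 4 the groups stood apart, though EBI3 reached the filter only through its Chelator counts.

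The other 5 called cytokines were CSF1, IL15, TSLP, TNFSF10 and TNFSF14. The call for TSLP (log2 1.22 ± 0.48) was lost on leaving out any library except DMSO replicate 1, with log2 0.84 without DMSO replicate 2, and that for TNFSF10 (log2 1.87 ± 0.68) without DMSO replicate 3, Chelator replicate 2 or Chelator replicate 3. CSF1, the macrophage growth factor, was the most abundant of the called cytokines and was named after its values were seen (3.85 ± 0.153 to 16.1 ± 0.733 TPM, log2 2.03 ± 0.10). The median log2 fold change of the 28 other cytokines with an adjusted p was 0.79, against 0.016 over all genes, but genes that passed the filter through the Chelator counts weigh on it.

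**Figure D5:**
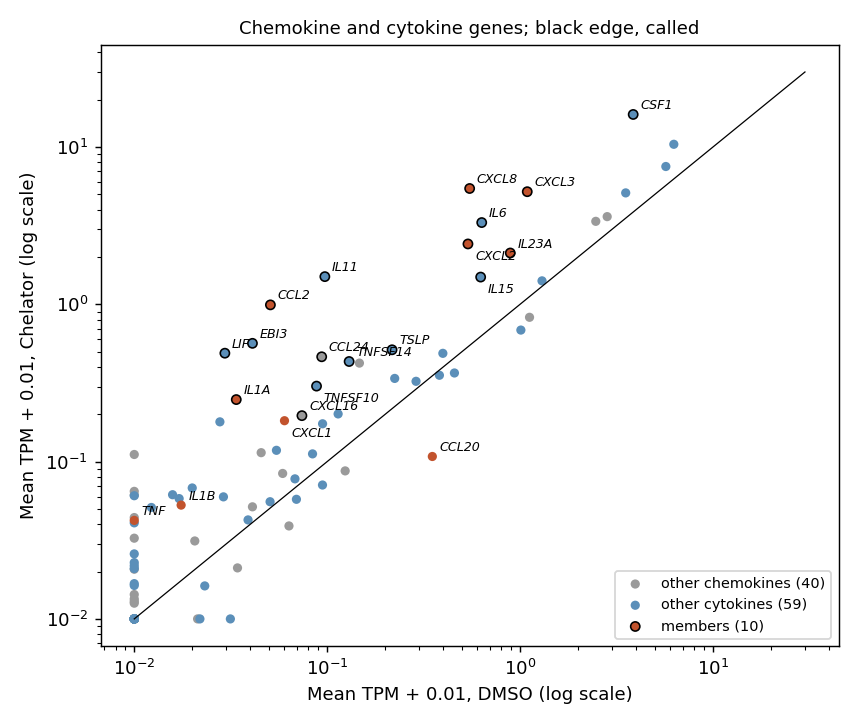
Mean TPM + 0.01 in DMSO (x axis) against Chelator (y axis), both on log scales, for the 10 members, 40 other chemokines and 59 other cytokines; called genes have a black edge and the line marks equal levels. The called genes all lie above the line, and CSF1 is the called gene with the highest level.

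Of 12 NF-kappaB target genes, 11 received an adjusted p and 4 were called, all higher, beside the 8.18% of all genes called higher: TRAF1 (log2 3.52 ± 0.39), RELB (log2 2.71 ± 0.34), IER3 (log2 1.82 ± 0.10) and NFKB2 (log2 1.33 ± 0.08). By adjusted p alone 3 more were higher, TNFAIP3 (log2 0.97 ± 0.12), NFKBIZ (log2 0.79 ± 0.29) and ICAM1 (log2 0.51 ± 0.08), and 2 were lower, NFKB1 (log2 -0.67 ± 0.08) and SOD2 (log2 -0.45 ± 0.07). The feedback inhibitor gene NFKBIA (log2 -0.12 ± 0.11) and BIRC3 (log2 0.22 ± 0.40) did not pass the test. PTGS2 had 2 counts in 1 library. The median log2 fold change over the 11 tested was 0.79, against 0.016 over all genes.

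Of 8 factors that act on AU-rich or cytokine mRNAs, ZFP36L1 alone was called (17.1 ± 0.429 to 62.2 ± 2.63 TPM, log2 1.83 ± 0.09, adjusted p = 1.85e-100). This single call stands beside the 8.18% of all genes called higher and does not set the list apart. ZFP36 and ZC3H12A rose below the fold threshold (log2 0.34 ± 0.11 and 0.71 ± 0.15), and KHSRP, HNRNPD and RC3H1 were lower below it (log2 -0.19 to -0.53). ZFP36L2 and ELAVL1 did not pass the test (log2 0.10 ± 0.06 and -0.15 ± 0.07). Decay rates were not measured.

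Some markers of other cell types were also higher in Chelator. The called counts of the marker lists stand beside the 8.18% of all genes called higher, and counts this small do not set a list apart. Of the 10 erythroid markers of K562 none was called; by adjusted p alone 4 were higher, all globin genes, and 3 were lower (KLF1, log2 -0.72 ± 0.07, EPOR, -0.44 ± 0.10, and TAL1, -0.28 ± 0.07). Their sum, which is mostly globin mRNA, was 15555 to 17175 TPM in DMSO and 21189 to 22569 TPM in Chelator. Of 11 monocyte and macrophage markers 1 was called (ITGAM, log2 1.65 ± 0.47), the sum went from 43.7 to 47.9 TPM to 59.4 to 64.7 TPM, and MARCO and S100A8 were at 0. LYZ and CD68, which carry nearly all of this sum, were higher by adjusted p alone (log2 0.63 ± 0.12 and 0.28 ± 0.09), and CD14, FCGR3A, FCN1 and CSF1R did not pass the test (adjusted p of 0.17 to 0.84). Of 4 neutrophil markers 2 were called, MPO (0, 1 and 1 counts to 178, 242 and 158) and CSF3R (9, 12 and 4 counts to 142, 146 and 97). MPO reached the filter only through its Chelator counts, FCGR3B did not pass the test (adjusted p = 0.93), and ELANE was at 0. The sum over the 4 was 0.0721 to 0.158 TPM in DMSO and 1.61 to 2.57 TPM in Chelator. Of 7 T, B and NK cell markers 2 were called (CD3D and CD3E), the sum, mostly CD3D, went from 11.8 to 18.0 TPM to 43.1 to 45.2 TPM, and MS4A1 was at 0. Of 7 fibroblast and endothelial markers 1 was called (COL1A1, higher), PECAM1 and COL1A2 were lower by adjusted p alone (log2 -0.81 ± 0.18 and -0.48 ± 0.14), the sum went from 8.93 to 11.3 TPM to 7.05 to 9.38 TPM, and CDH5 was at 0. The part of these markers in the rise of the chemokines was not tested.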

How the data were processed

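Per the labels and the methods of the study, the authors quantified polyA-selected read pairs with Salmon (version 1.10.2). The deposited files give, per transcript, the authors' estimated counts, the TPM (scaled by salmon to effective transcript length and library) and the effective length. The transcript annotation is not given in the sources used here. Estimated counts were summed per gene by GENCODE release 44 identifiers (433 of 252045 transcripts unmatched) and rounded. DESeq2 (version 1.42.0) compared Chelator with DMSO over 26074 genes with a total above 10, with transcript length as offset and Benjamini-Hochberg adjustment over all genes. The p-values measure the spread between 3 replicate libraries per group, and the labels do not give their level of replication. Exact intervals and floors cover counting error only. Levels are mean ± SD of TPM. Alternatives, with edgeR (version 4.0.16) among them, are described at the end. The fit was tested on simulated counts. The members and gene lists were chosen with earlier results of these data known. All members were named, and of each other list the called genes (the 4 largest changes where more than 4 were called) and direct receptors and partners. The uncalled genes of the NF-kappaB and mRNA decay lists, the markers and the neighbors of the members were named after their values were seen.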

Additional observations from a re-analysis of the deposited data

How the results depend on the processing

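CXCL8, CXCL2, CXCL3 and CCL2 kept their call and direction under all 15 other settings, including TMM scaling, edgeR, each filter, no length offset, centering on the mean change and leaving out each library. IL1A kept its call under 14 of 15, and lost it only in a Wald test against a log2 fold change of 1 (adjusted p = 0.2). IL23A kept its call under 13 of 15, and lost it in that test (adjusted p = 1) and without DMSO replicate 1. That test kept 4 of the 6 members and called 674 genes, 615 higher and 59 lower, in place of 2646, 2007 and 639; its null is stricter by construction. Summed over coding transcripts alone, the members were at 2.36 TPM in DMSO and 11.5 TPM in Chelator, in place of 3.49 and 16.7. Leaving out 1 library at a time, 2207 to 2607 genes were called. Same-numbered libraries of the groups had correlated deviations of -0.0036, 0.13 and 0.094 over 15222 genes, and replicates 2 and 3 of DMSO correlated best with their own number, whereas DMSO replicate 1 correlated best with Chelator replicate 3 (0.046). This hint of pairing did not hold in all 3 pairs, so the numbers were not taken to pair the libraries. With the replicate block 2345 genes were called, 1839 of them higher; the 6 members were called, and CXCL16 (adjusted p = 0.096) and TNFSF10 (adjusted p = 0.063) were not. CCL20, IL1B and TNF had 8 counts or fewer in every library, which limits what can be read from them.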
